A study of Mus musculus with 9 samples.

Results

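The genes described here are those of cholesterol synthesis, of its control by the sterol regulatory element-binding proteins (SREBPs) and of fatty acid synthesis. They form a list of 31 genes, picked by symbol from the 54532 gene IDs of the expression table. The list was chosen with earlier results of these data known. The list holds 5 regulators, 7 enzymes from acetoacetyl-CoA and mevalonate to farnesyl diphosphate, 11 enzymes from farnesyl diphosphate through squalene to cholesterol, 3 genes of sterol transport and efflux and 5 lipogenic genes. Expression was measured by RNA-seq in 9 libraries of wild-type HT22 cells, a single immortalized line of mouse hippocampal origin, with 3 libraries in each of 3 groups. Control cells were untreated. OGP cells went through 2 h of oxygen-glucose deprivation (OGD) and 24 h of reoxygenation with PBS. OGE cells went through the same deprivation and reoxygenation, with hiPS-MSC-EVs, vesicles shed by mesenchymal stem cells that were grown from human iPS cells, in place of PBS. A vesicle dose is given for the study's HT22 assays, but not for the sequenced cells in particular. The medium after OGD is described differently in the study's methods and in the sample labels, so any difference in serum between OGP and OGE cannot be told apart from the vesicles. Controls are not stated to have been moved to a serum-free medium either.

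Cells make cholesterol from acetyl-CoA in the endoplasmic reticulum, through mevalonate, isoprenoid diphosphates, squalene and lanosterol. When sterols are scarce, the escort protein SCAP carries SREBP precursors to the Golgi, where they are cut to release transcription factors. SREBP-2 mainly drives genes of cholesterol synthesis and SREBP-1 mainly those of fatty acid synthesis. When sterols are plentiful, INSIG proteins hold SCAP back, while oxysterols activate liver X receptors (LXRs), which drive the efflux genes. Neurons in culture make cholesterol themselves, and in the brain the blood-brain barrier keeps lipoprotein cholesterol of the blood out.

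Reads in genes numbered 15026700 to 19476806 per library. Mitochondrial transcripts took 1.62% ± 0.620 (SD, n = 3) of them in control, 2.90% ± 0.406 in OGP and 2.58% ± 0.479 in OGE, and their part in the results below was not tested. Control replicate 1 and OGE replicate 3 lay apart from their groups on the third principal component, at 33.1 and -19.4. Calls in the list that change without them are thus given with and without them. Among the other pathway genes looked up below, calls lost without them are named, but calls gained are not. OGP replicate 1 also differed more from OGP replicates 2 and 3 (chi-square per degree of freedom on reads 11.99 and 12.69) than these did from each other (4.44). Of 10 neuron markers 8 had a mean under 0.5 FPKM, among them Rbfox3, Nefl, Snap25 and Syp. Above it were Tubb3 (7.95 FPKM in control, 10.8 in OGP, 14.0 in OGE) and Map2 (1.32, 2.13 and 1.34) alone, so the markers as a list do not show a neuronal identity. The summed levels of 5 astrocyte markers were 9.32 to 11.1 FPKM in control, 4.11 to 5.68 in OGP and 2.75 to 3.28 in OGE, nearly all from Slc1a3, with Aqp4 at 0. Those of 5 microglia markers were 12.2 to 17.4, 16.5 to 19.0 and 9.02 to 10.2 FPKM, nearly all from Tmem119, with Cx3cr1 at or near 0 in each group. Oligodendrocyte and endothelial markers summed to at most 0.906 and 0.203 FPKM, with Mag, Olig1 and Emcn at 0. FPKM is the number of fragments per kilobase of a gene's exons, scaled to the depth of the library. For most genes of the list the length used equals all annotated exonic bases, so levels of different genes compare only roughly. The study calls the libraries biological replicates but does not state separate cultures, and p-values thus measure the spread between these libraries.

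Promoters of 24 of the 31 genes were found in the RefSeq table of GRCm38.p6, and 4 are shown, those of the called genes with the smallest p-values whose upstream window is free of other genes' exons. They are the windows before the start sites of the sensor genes Insig1 and Insig2, of the synthase gene Hmgcs1 and of the efflux gene Abca1, the genes the results turn on. Capitals mark matches on either strand to TCACNCCAC, a form of the sterol regulatory element, to CACGTG, the palindromic E-box, to CCAAT, the core of NF-Y sites (ATTGG on the other strand), and to GGGCGG, the GC box of Sp1 (CCGCCC on the other strand). The searched motifs do not overlap in these windows. Each sequence is written on its gene's strand, 5′ to 3′, and positions count upstream from the RefSeq start.
Insig1, chr5:28071162-28071362, plus strand: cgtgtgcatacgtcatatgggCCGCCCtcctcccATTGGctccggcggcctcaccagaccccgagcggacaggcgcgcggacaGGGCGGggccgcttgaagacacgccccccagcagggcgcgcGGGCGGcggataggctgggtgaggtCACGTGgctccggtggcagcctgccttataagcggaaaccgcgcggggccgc
Insig2, chr1:121332590-121332839, minus strand: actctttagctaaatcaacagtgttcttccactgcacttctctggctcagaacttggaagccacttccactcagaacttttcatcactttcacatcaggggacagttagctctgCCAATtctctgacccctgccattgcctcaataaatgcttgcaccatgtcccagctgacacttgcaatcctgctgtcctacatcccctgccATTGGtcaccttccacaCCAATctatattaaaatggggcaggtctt
Hmgcs1, chr13:119690101-119690350, plus strand: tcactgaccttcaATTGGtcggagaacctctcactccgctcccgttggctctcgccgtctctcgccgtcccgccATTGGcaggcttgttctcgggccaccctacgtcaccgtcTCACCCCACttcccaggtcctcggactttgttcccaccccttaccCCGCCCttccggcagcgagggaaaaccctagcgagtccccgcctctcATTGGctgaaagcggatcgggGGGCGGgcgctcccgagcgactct
Abca1, chr4:53159896-53160145, minus strand: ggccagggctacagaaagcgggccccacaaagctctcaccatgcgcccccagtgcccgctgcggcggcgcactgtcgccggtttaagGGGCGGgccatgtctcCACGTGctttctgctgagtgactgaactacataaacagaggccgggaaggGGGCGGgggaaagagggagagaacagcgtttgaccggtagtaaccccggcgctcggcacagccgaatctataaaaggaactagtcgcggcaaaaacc
The Insig1 window has 201 bases because its last 49 of 250 lie in an exon of the gene in GENCODE M21. For Insig2 the table has 3 starts, and the one nearest the gene's 5′ end was used.

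The sterol element letters were found in 1 of these 4 windows, that of Hmgcs1, as TCACCCCAC from 137 to 129 bases upstream. They were in 1 of the 24 promoters searched (4.17%) and in 1.05% of all 32851 windows of 250 bases. CACGTG stood 101 to 96 bases upstream of Insig1 and 147 to 142 bases upstream of Abca1. It was in 16.7% of the 24 promoters, also those of Hsd17b7 and Sc5d, and in 6.02% of all windows. CCAAT was in 18 of 24 (75.0%), against 33.8% of all windows, and GGGCGG in 18 of 24 as well, against 32.7%. The 32851 windows belong to 27025 gene symbols, some with several starts, and were not limited to genes expressed here. The 24 promoters have 1 window each, so these shares do not compare like sets. Hmgcs1 holds 3 CCAAT matches, Insig2 also 3, Insig1 1 and Abca1 none. A match describes letters in a window and is no evidence of binding, and TCACNCCAC is 1 of several forms of the element.

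In HT22 cells most of these genes were well expressed. Over the 9 libraries Scd2, a stearoyl-CoA desaturase that puts the double bond into oleate, had the highest mean at 391 FPKM. The lanosterol demethylase Cyp51 followed at 148, Insig1 at 139 and the ATP citrate lyase Acly, which makes cytosolic acetyl-CoA, at 112 FPKM. The neighbours Cyp51 and Insig1 changed places by group, since Insig1 ran from 178 to 191 FPKM in OGP and Cyp51 from 157 to 167, whereas in control Cyp51 (122 to 149) lay above Insig1 (105 to 117). At the low end stood Scap at 7.03, Abca1 at 4.49, the farnesyl diphosphate synthase Fdps at 3.95 and the sterol reductase Tm7sf2 at 3.61 FPKM. For Fdps 26.7% of the exonic bases, and for Tm7sf2 12.1%, are shared with another gene on the same strand (Gm43738 and Vps51), so their levels are uncertain. GENCODE M21 gives Tm7sf2 4403 exonic bases where its FPKM used a length of 5593, so its overlap may differ from 12.1%. Abcg1, a partner of Abca1 in sterol efflux, had 3 reads over the 9 libraries, 1 each in 3 of them, and was the 1 gene of the list not tested.

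**Figure D1:**
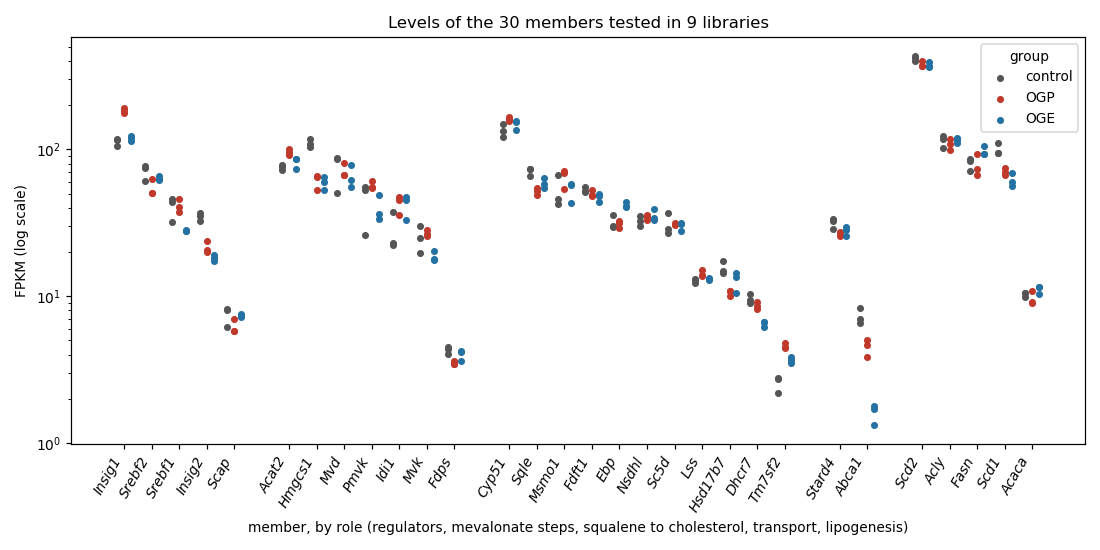
FPKM (log scale) of the 30 genes tested, grouped by role on the horizontal axis, with a point for each of the 3 control, 3 OGP and 3 OGE libraries. Scd2 lies above all others, and the points of Abca1 part into 3 levels, with control from 6.57 to 8.38, OGP from 3.88 to 5.07 and OGE from 1.32 to 1.80 FPKM.

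The first comparison, OGP against control, asks what deprivation and reoxygenation changed. In OGP Insig1, Tm7sf2 and the isopentenyl diphosphate isomerase Idi1 rose, while Hmgcs1, Insig2 and Abca1 fell. Of these, Idi1 lost its call in 10 of 20 alternatives and its groups overlapped, and Abca1 lost its call in 3. In bulk RNA, fewer cells that express a gene and less RNA per cell cannot be told apart. The 2 INSIG genes, which encode related sterol sensors, thus moved in opposite directions. The summed FPKM of the 18 sterol enzymes was 797 to 815 in control and 796 to 842 in OGP, so the total overlapped while its parts did not all hold their level. A gene counts as called here with an adjusted p of at most 0.05 in limma and a fold of at least 1.5. Called were 6 of the 30 genes tested (20.0%), 3 higher and 3 lower, beside 12.1% of all 13245 genes tested (6.38% higher, 5.74% lower). Groups did not overlap for 14 of the 30 genes, in either direction, beside 42.9% of all genes. The median log2 fold change of the 30 was -0.06 (all genes 0.0063), with a range from -0.83 to 0.73. The median ran from -0.12 (without OGP replicate 1) through -0.11 (without control replicate 1) to -0.03 (without OGP replicate 3) when 1 library was left out.

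The second comparison, OGE against OGP, asks what the vesicles changed in cells after OGD. In OGE Insig1 fell to near its control level and Abca1 fell further. No gene of the list was called higher, and none of the 18 sterol enzymes or 5 lipogenic genes was called at all. A further 3 sterol enzymes had an adjusted p of at most 0.05 below that fold, Ebp higher and Mvk and Dhcr7 lower. Called were 2 of 30 (6.67%), both lower, beside 8.12% of all genes (3.39% higher, 4.73% lower), so the share was near that of all genes. Groups did not overlap for 15 of 30, in either direction, beside 45.4% of all genes. The median log2 fold change was -0.07 (all genes 0.0039), and it turned to 0.04 under quantile normalization. With 1 library left out it ran from -0.11 (without OGE replicate 1) to -0.01 (without OGE replicate 3).

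The third comparison, OGE against control, sets cells after OGD with vesicles beside untreated cells. In OGE Abca1, Insig2, Hmgcs1 and the desaturase gene Scd1 fell, and no gene of the list was called higher. These were 4 of 30 (13.3%), beside 11.5% of all genes (5.14% higher, 6.33% lower). Groups did not overlap for 13 of 30, in either direction, beside 38.2% of all genes. The median log2 fold change was -0.11 (all genes -0.0034), with a range from -1.89 to 0.61, and the median ran from -0.14 (without control replicate 1) to -0.05 (without control replicate 3 or OGE replicate 2) with 1 library left out. Without control replicate 1 and OGE replicate 3, 7 genes were called, 1 higher and 6 lower, of which 3 were among the 4, while 17.1% of all genes were called in that fit. The 3 comparisons share libraries in pairs and are not independent of each other. By group mean 15 of the 30 genes were highest in control, 10 in OGP and 5 in OGE.

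**Figure D2:**
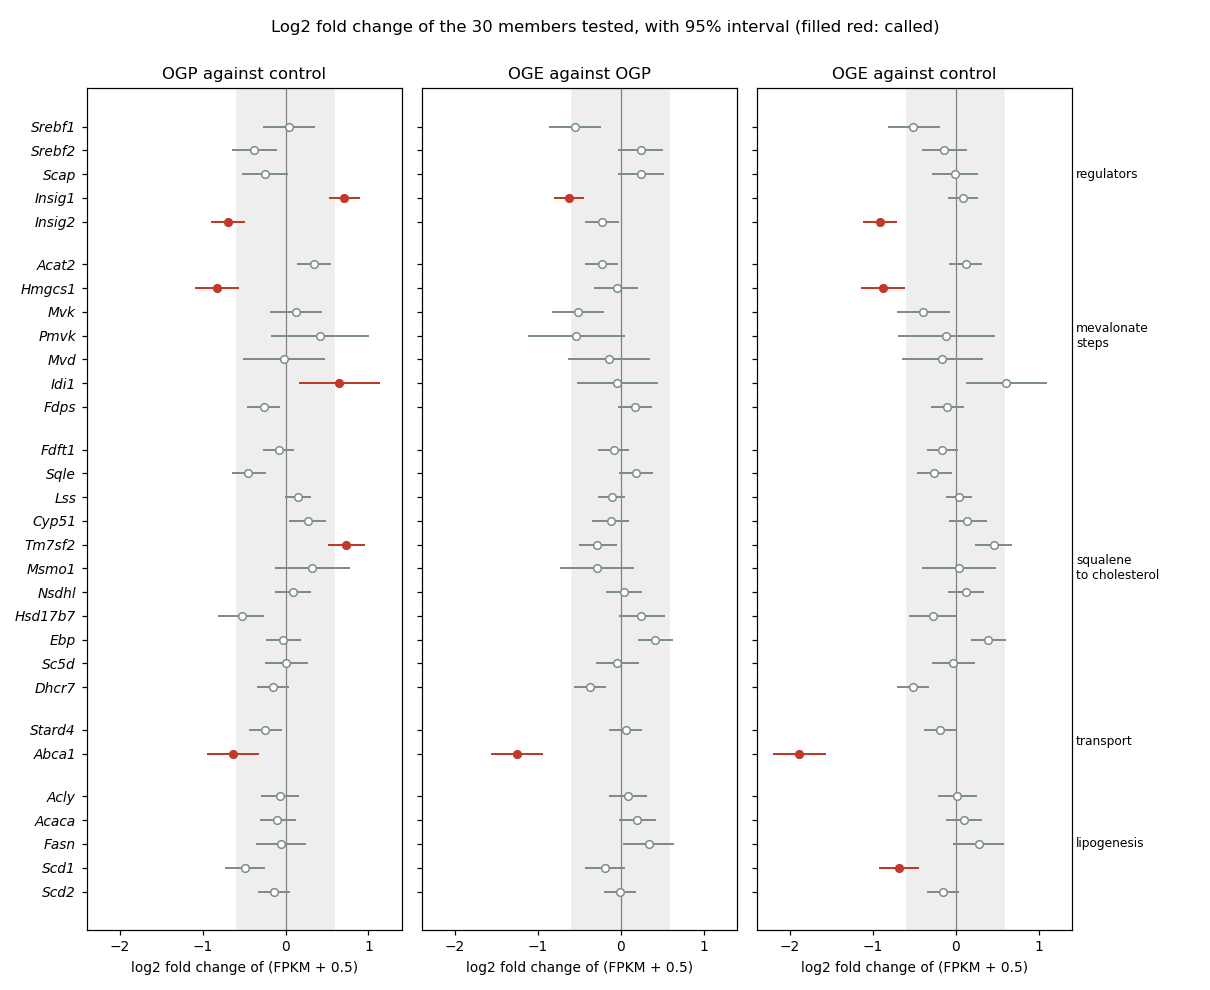
Log2 fold change of (FPKM + 0.5) with its 95% interval for the 30 genes tested, in the 3 comparisons, ordered by role. Filled red points are called, grey open points are not, and the grey band spans folds under 1.5. Insig1 lies at 0.71 in OGP against control and at -0.62 in OGE against OGP, and Abca1 is left of 0 in all 3 panels, at -0.64, -1.25 and -1.89.

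Among the regulators, Insig1 (ENSMUSG00000045294, chromosome 5 from 28071363 to 28078662 of mm10) is itself a known SREBP target. It had 105, 115 and 117 FPKM in control replicates 1 to 3, 191, 182 and 178 in OGP and 120, 114 and 124 in OGE. The 3 OGP libraries stood well above the other 6, while control and OGE overlapped. Group means were 113 ± 6.42 FPKM for control, 184 ± 6.80 for OGP and 120 ± 4.98 for OGE (SD, n = 3). On the log2 scale OGP differed from control by 0.71 (SE 0.076, limma adjusted p = 0.000259) and OGE from OGP by -0.62 (SE 0.076, adjusted p = 0.000605). In OGE against control it was 0.09, with a 95% interval from -0.08 to 0.26. Quantile normalization brought the fall in OGE to -0.40 and under the fold of 1.5, the 1 alternative of 20 that ended this call, and none of 20 ended the call of the rise in OGP.

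Insig2 (ENSMUSG00000003721, chromosome 1 from 121304353 to 121332589), the paralog of Insig1 that does not depend on SREBPs in the same way, took another course. It had 37.1, 32.7 and 35.3 FPKM in control, 19.9, 23.6 and 20.8 in OGP and 18.2, 19.2 and 17.4 in OGE. Control lay above both OGD groups with no overlap, and OGE lay just below OGP. Against control, the log2 fold change was -0.70 (SE 0.087, limma adjusted p = 0.000551) in OGP and -0.92 (SE 0.087, adjusted p = 9.9e-05) in OGE. Between OGE and OGP it was -0.22, with a 95% interval from -0.42 to -0.03 and an adjusted p of 0.102. In control there was about 113 FPKM of Insig1 beside 35.0 ± 2.19 of Insig2, and in OGP 184 beside 21.4 ± 1.94.

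The genes of the SREBPs and of their escort were not called in any comparison. Srebf1, which encodes SREBP-1, had 31.8, 46.0 and 43.5 FPKM in control, 45.8, 37.7 and 40.2 in OGP and 27.6, 28.4 and 27.9 in OGE. All OGE libraries lay below all others, at a log2 fold change of -0.55 (adjusted p = 0.0202) against OGP and of -0.51 (adjusted p = 0.0231) against control, both under the fold of 1.5. Over the 20 alternatives these limma adjusted p-values rose to at most 0.0664 and 0.0829. Control replicate 1 was at 0.711 times the mean of the other 2 controls, and without it Srebf1 was called in OGE against control, at -0.67, as it was in OGE against OGP without OGP replicate 2, at -0.61. Its direction in OGP against control, 0.04, turned to -0.12 without control replicate 1 and to -0.04 without OGP replicate 1. Srebf2, which encodes SREBP-2, had 60.9 to 77.1 FPKM in control, 62.6, 50.6 and 50.1 in OGP and 62.3 to 66.3 in OGE. Its log2 fold change was -0.38 (adjusted p = 0.0357) in OGP against control. Among the alternatives that limma adjusted p reached 0.126. Scap had 6.19 to 8.20, 5.77 to 7.05 and 7.25 to 7.59 FPKM, and OGE did not overlap with OGP. On the other strand, 5830462I19Rik shares 13.2% of the exonic bases of Scap.

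**Figure D3:**
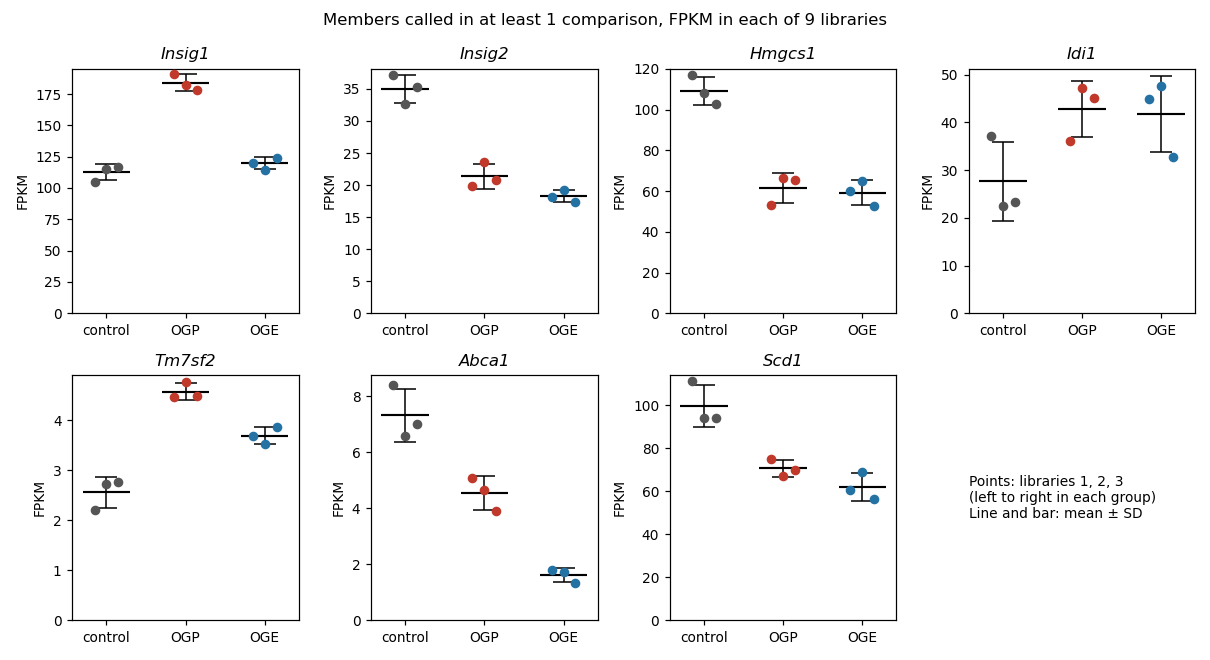
FPKM of the 7 genes called in at least 1 comparison, with a point for each library and the mean ± SD of each group of 3. Insig1 is high in OGP alone, Insig2 and Hmgcs1 are low in both OGD groups, Abca1 steps down from control to OGP to OGE, and for Idi1 control replicate 1 (37.2 FPKM) reaches into the range of the other groups.

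At the entry of the mevalonate steps, Hmgcs1 (ENSMUSG00000093930, chromosome 13 from 119690379 to 119708260) encodes the cytosolic HMG-CoA synthase, a classic SREBP-2 target. It had 117, 108 and 103 FPKM in control, 53.1, 66.3 and 65.3 in OGP and 60.1, 64.8 and 52.8 in OGE. Both OGD groups lay well below control and overlapped with each other. Against control, it changed by -0.83 (log2, SE 0.11, limma adjusted p = 0.000844) in OGP and by -0.88 (SE 0.11, adjusted p = 0.000542) in OGE. Between OGE and OGP it was -0.05, with a 95% interval from -0.31 to 0.20. Hmgcs1 thus fell while Insig1, another SREBP target, rose in the same OGP libraries. Reads of Gm48342, which covers 12.1% of its exonic bases on the other strand, cannot be told apart from its own, because no source says that strand was kept in these libraries.

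Idi1 (ENSMUSG00000058258, chromosome 13 from 8885501 to 8892451), whose enzyme turns isopentenyl diphosphate into dimethylallyl diphosphate, had 37.2, 22.4 and 23.2 FPKM in control, 36.0, 47.1 and 45.0 in OGP and 44.9, 47.7 and 32.8 in OGE. Control replicate 1 was high for its group, at 1.63 times the mean of the other 2, and OGE replicate 3 low for its own, at 0.708 times, so the groups overlap. The log2 fold change was 0.65 (SE 0.21, limma adjusted p = 0.0455) in OGP against control, and 10 of 20 alternatives ended the call. Among these were leaving out control replicate 2 (0.52) or 3 (0.55), OGP replicate 2 (0.57) or 3 (0.61), and OGE replicate 1 or 2 (0.65 each). Without control replicate 1 it was 0.88. In OGE against control Idi1 missed the threshold at 0.61 (adjusted p = 0.0655), but was called without control replicate 1 (0.84), without OGE replicate 3 (0.77) and without both (1.00). Gm48574 shares 9.22% of its exonic bases on the other strand.

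The other 5 genes of these steps were not called. Acat2, whose thiolase joins acetyl-CoA units, had 72.1 to 78.0 FPKM in control, 91.8 to 100.0 in OGP and 73.6 to 86.4 in OGE, and its log2 fold change in OGP against control was 0.34 (adjusted p = 0.0145). Among the alternatives its limma adjusted p reached 0.0616. The kinase genes Mvk and Pmvk and the decarboxylase gene Mvd act in sequence on mevalonate. Mvk had 19.6, 29.9 and 24.8 FPKM in control, 28.2, 26.4 and 25.6 in OGP and 17.8, 17.7 and 20.2 in OGE, where it was lower than in OGP at -0.52 (adjusted p = 0.0271) and under the fold of 1.5. That limma adjusted p reached 0.0893 among the alternatives. Pmvk had 26.3, 55.1 and 52.5 FPKM in control, 60.6, 55.6 and 54.7 in OGP and 36.3, 33.8 and 48.8 in OGE. For both, OGE lay below OGP with no overlap. Control replicate 1 was low in both, at 0.717 and 0.489 times the mean of the other 2 controls, and in Mvd at 0.578 times. Without it and OGE replicate 3, Mvk and Pmvk were called lower in OGE than in control, at -0.60 and -0.61, and Pmvk lower in OGE than in OGP, at -0.69. With all libraries Pmvk was at -0.12 against control and -0.54 against OGP, with 95% intervals from -0.69 to 0.46 and from -1.11 to 0.04. Mvd ran from 50.2 to 87.6 FPKM in control, 67.2 to 80.3 in OGP and 55.6 to 78.2 in OGE, so all groups overlapped. Fdps had 4.06 to 4.54, 3.45 to 3.63 and 3.65 to 4.22 FPKM. The 7 genes summed to 326 to 384 FPKM in control, 354 to 362 in OGP and 310 to 311 in OGE.

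From squalene to cholesterol, 1 of 11 genes was called in OGP against control and none in the other comparisons. Tm7sf2 (ENSMUSG00000024799, chromosome 19 from 6062821 to 6077197) encodes a sterol delta14-reductase, an activity that the lamin B receptor also has. It had 2.20, 2.73 and 2.76 FPKM in control, 4.46, 4.77 and 4.48 in OGP and 3.68, 3.53 and 3.86 in OGE. The groups formed 3 steps with no overlap, with OGE between control and OGP. The log2 fold change was 0.73 (SE 0.095, limma adjusted p = 0.00069) in OGP against control, 0.46 (adjusted p = 0.0079) in OGE against control and -0.28 (adjusted p = 0.0702) in OGE against OGP. Folds on the log2(FPKM + 0.5) scale understate the change of such a low gene, whose mean rose by 78.3% in OGP.

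The other 10 genes of this stretch kept within the fold of 1.5. Sqle, whose epoxidase is a rate-limiting enzyme of the pathway, had 65.4 to 73.5 FPKM in control, 49.0 to 54.2 in OGP and 54.5 to 64.3 in OGE, with no overlap between any pair of groups and a log2 fold change of -0.45 (adjusted p = 0.00528) in OGP against control. Hsd17b7, a sterol ketoreductase gene, had 14.4 to 17.5, 10.1 to 10.8 and 10.6 to 14.4 FPKM, with -0.53 (adjusted p = 0.00944) in OGP against control, and was called there without control replicate 3, at -0.59. Ebp, which encodes the sterol isomerase, was the 1 gene of the list with an adjusted p under the threshold and a higher level in OGE than in OGP, with 29.8, 35.5 and 30.2 FPKM in control, 29.1, 31.6 and 32.7 in OGP and 40.4, 43.7 and 41.3 in OGE. Its log2 fold change was 0.42 (adjusted p = 0.00988) against OGP and 0.39 (adjusted p = 0.0106) against control. Dhcr7, the last reductase in the Kandutsch-Russell branch, was lower in OGE, with 9.06 to 10.3 FPKM in control, 8.16 to 9.08 in OGP and 6.18 to 6.72 in OGE. Its log2 fold change was -0.37 (adjusted p = 0.0107) against OGP and -0.52 (adjusted p = 0.00146) against control.

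Of the remaining 6, the cyclase gene Lss and Cyp51 were higher in OGP than in control with no overlap (13.8 to 15.0 against 12.4 to 13.2 FPKM, and 157 to 167 against 122 to 149), at adjusted p-values above 0.05. Fdft1, the squalene synthase gene, had 43.5 to 50.0 FPKM in OGE and 51.5 to 55.0 in control, with 18.3% of its exonic bases overlapped by Ctsb on the other strand. Nsdhl, a sterol dehydrogenase gene, had 29.9 to 39.1 FPKM over all 9 libraries. The methyl oxidase gene Msmo1 had 42.6 to 67.2 FPKM in control, 53.3 to 70.8 in OGP and 43.0 to 58.0 in OGE, and Sc5d, a sterol desaturase gene, had 27.1 to 36.9, 30.5 to 31.6 and 27.9 to 31.3. Control replicate 1 was at 1.52 and 1.32 times the mean of the other 2 controls in Msmo1 and Sc5d. Over all tested genes of the list it was over 1.25 times that mean in 3 and under 0.8 times in 5, and OGE replicate 3 was over 1.25 times the mean of the other 2 OGE libraries in 2 and under 0.8 times in 4. The 11 genes summed to 424 to 489 FPKM in control, 442 to 481 in OGP and 414 to 477 in OGE.

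**Figure D4:**
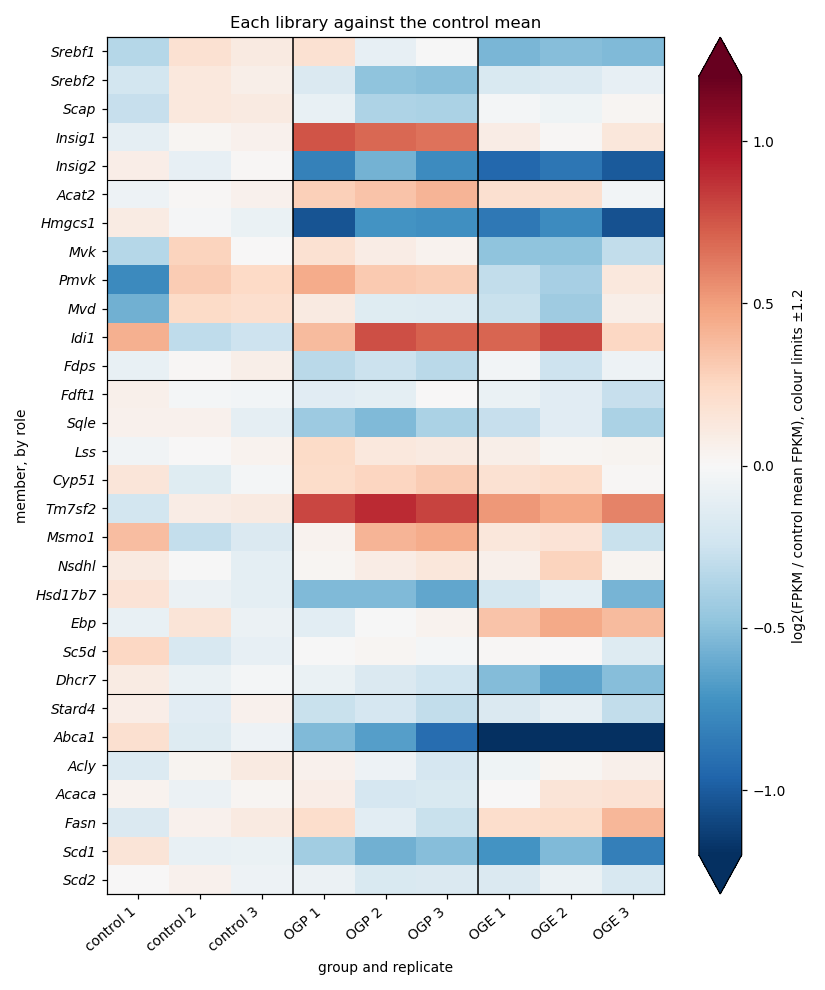
Log2 ratio of each library's FPKM to the control mean (colour, limits ±1.2) for the 30 genes tested in rows by role, with the 9 libraries in columns. The Insig1 and Insig2 rows take opposite colours in OGP, Abca1 is past the limit of the scale in all 3 OGE libraries, and control replicate 1 differs from the other controls in Pmvk, Mvd and Idi1.

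In sterol transport the largest change of the list was that of Abca1 (ENSMUSG00000015243, chromosome 4 from 53030787 to 53159895), which encodes the transporter that loads cholesterol onto lipid-poor apolipoproteins and is a classic LXR target. It had 8.38, 6.57 and 7.01 FPKM in control, 5.07, 4.64 and 3.88 in OGP and 1.80, 1.72 and 1.32 in OGE. The 3 groups did not overlap, and OGE was lowest. Group means were 7.32 ± 0.947 FPKM for control, 4.53 ± 0.603 for OGP and 1.61 ± 0.254 for OGE (SD, n = 3). The OGE mean was 78.0% below that of control, a larger change than the fold on log2(FPKM + 0.5) shows. The log2 fold change was -1.25 (SE 0.13, limma adjusted p = 0.000277) in OGE against OGP and -1.89 (SE 0.13, adjusted p = 1.8e-05) in OGE against control, and both calls held under 20 of 20 alternatives, from -1.46 to -1.08 and from -2.15 to -1.67. In OGP against control it was -0.64 (SE 0.13, adjusted p = 0.00746), and it went to -0.54, under the fold of 1.5, when control replicate 1, OGP replicate 3, or both control replicate 1 and OGE replicate 3 were left out. Stard4, whose protein carries sterols between membranes, had 28.8 to 33.5 FPKM in control, 25.8 to 27.5 in OGP and 25.7 to 29.4 in OGE, and was not called.

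Of the 5 lipogenic genes 1 was called. Scd1 (ENSMUSG00000037071, chromosome 19 from 44394451 to 44407709), a stearoyl-CoA desaturase gene driven by SREBP-1 and LXR, had 111, 93.8 and 94.2 FPKM in control, 74.7, 67.0 and 70.0 in OGP and 60.4, 68.8 and 56.4 in OGE. Control lay above both OGD groups, which overlapped. The log2 fold change was -0.68 (SE 0.10, limma adjusted p = 0.0013) in OGE against control, and the call was lost under quantile normalization (-0.55) and without control replicate 1 and OGE replicate 3 (-0.54). In OGP against control it was -0.49 (adjusted p = 0.00664), under the fold of 1.5. The neighbouring paralog Scd2 had 401 to 434 FPKM in control, 369 to 399 in OGP and 365 to 395 in OGE. How the counting treated reads that fit both paralogs was not stated, so both levels are uncertain.

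Acly, the acetyl-CoA carboxylase gene Acaca and the fatty acid synthase gene Fasn, which act in sequence from citrate to palmitate, were not called. Acly had 102 to 123 FPKM in control, 99.3 to 118 in OGP and 110 to 119 in OGE. Acaca had 9.83 to 10.6, 8.97 to 10.9 and 10.3 to 11.6 FPKM. Fasn had 71.2, 83.7 and 86.6 FPKM in control, 93.0, 73.8 and 66.7 in OGP and 92.9, 93.5 and 106 in OGE, so that OGE lay above control but shared its range with OGP replicate 1. The 5 genes summed to 712 to 739 FPKM in control, 617 to 696 in OGP and 644 to 684 in OGE.

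Around these genes, 56 others of SREBP processing and LXR, isoprenoid and side enzymes, fatty acid synthesis and cholesterol handling were looked up, and 47 were tested. In OGP against control 1 was called higher and 2 lower (6.38%, beside 12.1% of all genes). In OGE against OGP 0 were called higher and 3 lower (6.38%, beside 8.12%), and in OGE against control 1 higher and 3 lower (8.51%, beside 11.5%). Counts this small do not set these shares apart from those of all genes. Without control replicate 3 the first count was 5, and without OGE replicate 3 the last was 2. Mylip, whose ubiquitin ligase degrades lipoprotein receptors and which is an LXR target like Abca1, had 5.51, 5.74 and 6.36 FPKM in control, 9.22, 9.25 and 8.34 in OGP and 3.68, 4.26 and 3.55 in OGE. It fell in OGE against OGP by 1.13 on the log2 scale (SE 0.092, limma adjusted p = 5.4e-05), and its 0.57 in OGP against control was under the fold of 1.5. That value passed the threshold in 5 of 20 alternatives, without control replicate 3 (0.62), without OGP replicate 3 (0.61), under quantile normalization (0.60), with voom (0.62) and with a pseudocount of 0.1 (0.60). Both Abca1 and Mylip were thus lowest in OGE, but in OGP they stood on opposite sides of control. Lpcat3, another LXR target of that list, had 20.7 to 22.3 FPKM in control, 15.0 to 16.8 in OGP and 15.9 to 17.1 in OGE. It lay below control in both OGD groups with no overlap, but was not lower in OGE than in OGP (log2 fold change 0.03). Of the LXR genes themselves, Nr1h2 was not called and Nr1h3, with a mean under 0.5 FPKM, was not tested.

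Soat2, which encodes a cholesterol-esterifying enzyme, had 0.802, 0.692 and 0.802 FPKM in control, 2.19, 2.23 and 1.55 in OGP and 2.31, 1.81 and 2.53 in OGE. It rose in both OGD groups against control, by 0.97 on the log2 scale in OGP (SE 0.15, limma adjusted p = 0.00178) and by 1.09 in OGE (SE 0.15, adjusted p = 0.000882). Its mean rose by 160% in OGP and 190% in OGE, more than these folds on log2(FPKM + 0.5) show. Gpam, whose acyltransferase starts glycerolipid synthesis, went from 17.4 ± 2.10 FPKM in control to 9.90 ± 1.66 in OGP (log2 fold change -0.79, adjusted p = 0.00176). Acat1, the mitochondrial thiolase gene, went from 39.1 ± 3.25 in OGP to 23.4 ± 1.03 in OGE (-0.73, adjusted p = 0.000454). Acss2, which makes acetyl-CoA from acetate in the cytosol, stood at 2.39 ± 0.125 FPKM in control, 2.50 ± 0.163 in OGP and 1.42 ± 0.0617 in OGE. It was called lower in OGE against OGP (-0.64, adjusted p = 0.00163), and in OGE against control (-0.59, adjusted p = 0.00185) with the call lost in 5 of 20 alternatives, among them without control replicate 3, OGE replicate 2 or OGE replicate 3. Lpl, the lipoprotein lipase gene, went from 13.2 ± 2.38 FPKM in control to 7.56 ± 0.632 in OGE (-0.75, adjusted p = 0.00219), and its call was lost without both control replicate 1 and OGE replicate 3 (-0.57). Scarb1, a lipoprotein receptor gene, was called lower in OGP against control (26.6 to 17.2 FPKM, -0.62), and the call was lost without control replicate 2 (-0.54), without OGP replicate 2 (-0.57) and under quantile normalization (-0.57). Lipa, the lysosomal acid lipase gene, was called lower in OGE against control (21.8 to 13.8 FPKM, -0.64), and the call was lost without control replicate 1 (-0.54), without OGE replicate 3 (-0.56) and without both (-0.46).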

How the data were processed

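RNA-seq of 9 HT22 libraries, 3 each of control, OGP and OGE cells, was used. The submitters' processing notes name HISAT2 2.0.5 and mm10, and the study's methods name featureCounts for the read count of a gene. From these counts the authors made the deposited FPKM values, with a tool not given in the sources used here. TRIZOL is the extraction reagent in the methods and an RNeasy kit in the labels, with poly-T selection of mRNA. FPKM times gene length gave whole reads within 0.1 for 100% of values, from which depth was taken.

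Genes were tested where they averaged 0.5 FPKM or more, which 13245 did. Log2(FPKM + 0.5) was fitted with limma 3.58.1 (R 4.3.3, trended prior variance) over the 9 libraries as 3 groups. Benjamini-Hochberg adjustment covered all 13245. Values after ± are SD, and SE belongs to the fitted log2 fold change. All genes of the list were named by role, and those called are given in every library. Of the other pathway genes the 3 with the smallest p in each comparison were named, while Scarb1, Lipa, Nr1h2, Nr1h3 and Lpcat3 were named after their values were seen. The genes, lists and motifs were chosen with earlier results of these data known. The procedure was tested on simulated data. Alternatives were other pseudocounts (0.1 and 1), filters, scalings, robust variances, 6 libraries at a time, voom on the recovered reads, a replicate block, no fold threshold, and leaving out libraries. Promoters came from RefSeq (GRCm38.p6), and exon overlaps from GENCODE M21. Animal experiments and cell assays were not analysed here.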

Additional observations from a re-analysis of the deposited data

How the results depend on the processing

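Over 52 pairs of a gene and a comparison, 31 kept direction and side of the threshold under all 20 alternatives run. With no fold threshold 12, 6 and 8 genes of the list were called in OGP against control, OGE against OGP and OGE against control, and 13, 8 and 15 of the other pathway genes, beside 29.8%, 20.8% and 24.8% of all genes. Quantile normalization left 1 call in OGE against OGP. It moved the median log2 fold change to 0.04 there and to -0.01 in OGE against control, where voom gave -0.08 and leaving out 1 library -0.14 to -0.05. Without control replicate 1 and OGE replicate 3 that median was -0.09, with 7 calls. Leaving out 1 library gave 4 to 6, 2 to 3 and 4 to 6 calls in the list, and 2 to 5, 3 to 4 and 2 to 6 among other pathway genes, where the lowest (2) was without OGP replicate 2 in OGP against control and without OGE replicate 3 in OGE against control, and the highest were without control replicate 3 (5) and without control replicate 1 (6). Directions of uncalled genes turned as follows. In OGE against OGP, Hmgcs1 went to 0.10 (quantile), 0.03 (both left out) and -0.16 to 0.03 (1 left out), and Idi1 to 0.05, 0.12 and -0.16 to 0.12. In OGP against control, Mvk went to -0.03 (both left out) and -0.03 to 0.27, and Srebf1 to -0.12 and -0.12 to 0.14. Pmvk in OGE against control ran from -0.46 to 0.07 with 1 left out. The causes were not tested. Same-numbered libraries correlated at -0.177 to 0.319 in their deviations from the group means, and differently numbered ones at -0.346 to 0.264. With 3 libraries a group, these values cannot decide whether the numbers pair libraries. A replicate block gave 5, 2 and 4 calls in the list. Several changes below the fold of 1.5 had an adjusted p of at most 0.05, so for these genes the fold threshold limited the calls in the main fit. For Srebf1, Srebf2, Mvk, Acat2 and Fdps that adjusted p passed 0.05 in some alternatives.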
